A study of Mus musculus with 9 samples.

Results

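Antioxidant defence was examined through 10 genes, Nqo1, Hmox1, Gclc, Gclm, Txnrd1, Sod1, Sod2, Sod3, Cat and Gpx3, in hearts of 2 month old mice. A gene was taken when a probe set of the array carried its symbol and no other. Each of the 10 had 1 such probe set, out of 22180 genes with a single-symbol probe set. All 10 were among the 13085 genes bright enough to be tested, as their log2 signal averaged more than 5.21 over the hearts, which was the median of all probe sets. The hearts came from Col4a3-/-OPN-/- mice, which lack osteopontin as well as the alpha 3 chain of type IV collagen, from Col4a3-/- mice, which lack only the collagen chain, and from Wild Type mice, with 3 hearts per genotype and 1 array per heart. Col4a3-/- mice are a model of Alport syndrome, an inherited disease of basement membranes that damages the kidney. Both mutant genotypes carry the collagen deletion, so the effect of osteopontin loss was measured only on that background, and no OPN-/- heart with intact collagen was analysed here. The deletions are carried by the whole animal, not by the heart alone, and strain and sex were not given in the sources used here. By its title, the study concerns a form of heart failure in Alport mice and the place of osteopontin and mitochondria in it.

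The genes fall into 2 layers of defence. One layer is switched on by the transcription factor NRF2, encoded by Nfe2l2, which KEAP1 holds back and marks for degradation in unstressed cells. Oxidants and electrophiles release NRF2, which then pairs with small MAF proteins on antioxidant response elements and raises enzymes that make glutathione, reduce quinones, break down heme and recharge thioredoxin. The other layer removes oxidants directly: superoxide dismutases turn superoxide into hydrogen peroxide, and catalase and glutathione peroxidases remove the peroxide. Cardiomyocytes are dense in mitochondria, a main source of superoxide in the heart.

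The values are log2 signals, on which a difference of 1 is a change of 2-fold, and they do not allow levels of different genes to be compared. The 9 arrays correlated with r from 0.936 to 0.986 over 36 pairs, and Col4a3-/- replicate 3 stood apart, with a mean r of 0.943 to the others. It had the highest summed signal of acute inflammation genes, 19770 on the linear scale. That list includes the metallothionein genes Mt1 and Mt2, at log2 signals of 12.04 and 12.82 in this heart, which weigh heavily in the sum. The median log2 signal of the list was 8.79 in this heart, against 5.99 to 6.74 in the other 8 hearts. The tissue label held: the median log2 signal of 10 cardiomyocyte markers was 12.19 to 12.36 over the hearts, against 5.21 over all probe sets. Signals of other cells moved with genotype. The summed linear signal of 7 smooth muscle markers was 5191 to 5695 in Col4a3-/-OPN-/- hearts, 3253 to 4672 in Col4a3-/- hearts and 6066 to 6664 in Wild Type hearts. The summed signal of 6 atrial markers was 7412 and 8344 in Col4a3-/- replicates 1 and 3, against 12700 to 16040 in the other 7 hearts. Col4a3-/- replicate 3 had a summed signal of 6 liver markers of 2108, with Alb at a log2 signal of 10.54, against 261.3 to 337.9 in the other 8 hearts. Its Col1a1, a fibroblast marker, was at 6.50 against 8.07 to 9.61 elsewhere, and its summed cardiomyocyte signal was 42370 against 47090 to 48420. The 7 fibroblast markers did not fall together in this heart. Their median log2 signal was 6.72 against 8.07 to 9.02 in the other 8 hearts. Their summed signal, in which Dcn at 12.04 weighs heavily, was 5222, within the 5083 to 6907 of the other 8. In Col4a3-/- replicate 2, 6 brown and white fat markers summed to 6910 against 2836 to 4364 in the other 8 hearts. Xist was high and the Y-linked Eif2s3y low in Col4a3-/-OPN-/- replicate 2 and Col4a3-/- replicates 1 and 3, so sex differed within both mutant genotypes and no Wild Type heart was female by these genes. The part of these shifts in the values below was not tested except where stated. In RNA from whole hearts, fewer cells of a type and less RNA per cell cannot be told apart.

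None of the 10 antioxidant genes passed the test for a difference between genotypes. Between Col4a3-/- and Wild Type hearts, 0 of 10 passed an adjusted p of 0.05 in limma, where 0% of all 13650 tested probe sets passed, and 0 of 10 had an unadjusted p under 0.05, where 8.35% did. Between Col4a3-/-OPN-/- and Col4a3-/- hearts, 0 of 10 passed, where 0.044% of probe sets did, and 0 of 10 had an unadjusted p under 0.05, where 13.6% did. Between Col4a3-/-OPN-/- and Wild Type hearts, 0 of 10 passed, where 0% did, and 0 of 10 had an unadjusted p under 0.05, where 3.68% did. The moderated F-test over the 3 genotypes also called 0 of 10, with 0.0147% of probe sets called, and the members' adjusted p ran from 0.797 for Cat to 0.962 for Sod1. The members' adjusted p in limma ran from 0.748 to 0.953 for Col4a3-/- minus Wild Type and from 0.603 to 0.948 for Col4a3-/-OPN-/- minus Col4a3-/-, and was 0.999 for each in Col4a3-/-OPN-/- minus Wild Type. In no member did the hearts of any 2 genotypes separate without overlap. The shares of all probe sets that did so were 12.5% for Col4a3-/- against Wild Type, 16.5% for Col4a3-/-OPN-/- against Col4a3-/- and 13.2% for Col4a3-/-OPN-/- against Wild Type.

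The signs of the differences were mixed. In Col4a3-/- minus Wild Type, 3 members were positive and 7 negative, with a median of -0.12 against -0.02 over all tested probe sets. In Col4a3-/-OPN-/- minus Col4a3-/-, 7 were positive and 3 negative, with a median of 0.09 against 0.04 over all. These 2 comparisons share the Col4a3-/- hearts, so their signs are linked. In Col4a3-/-OPN-/- minus Wild Type, 4 were positive and 6 negative, with a median of -0.01 against 0.01 over all. A p that misses the threshold does not show equal levels, and the 95% intervals given for each gene state which differences remained possible. The smallest p that an exact permutation test of 3 hearts against 3 allows is 0.1, and it was not used for single genes.

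**Figure D1:**
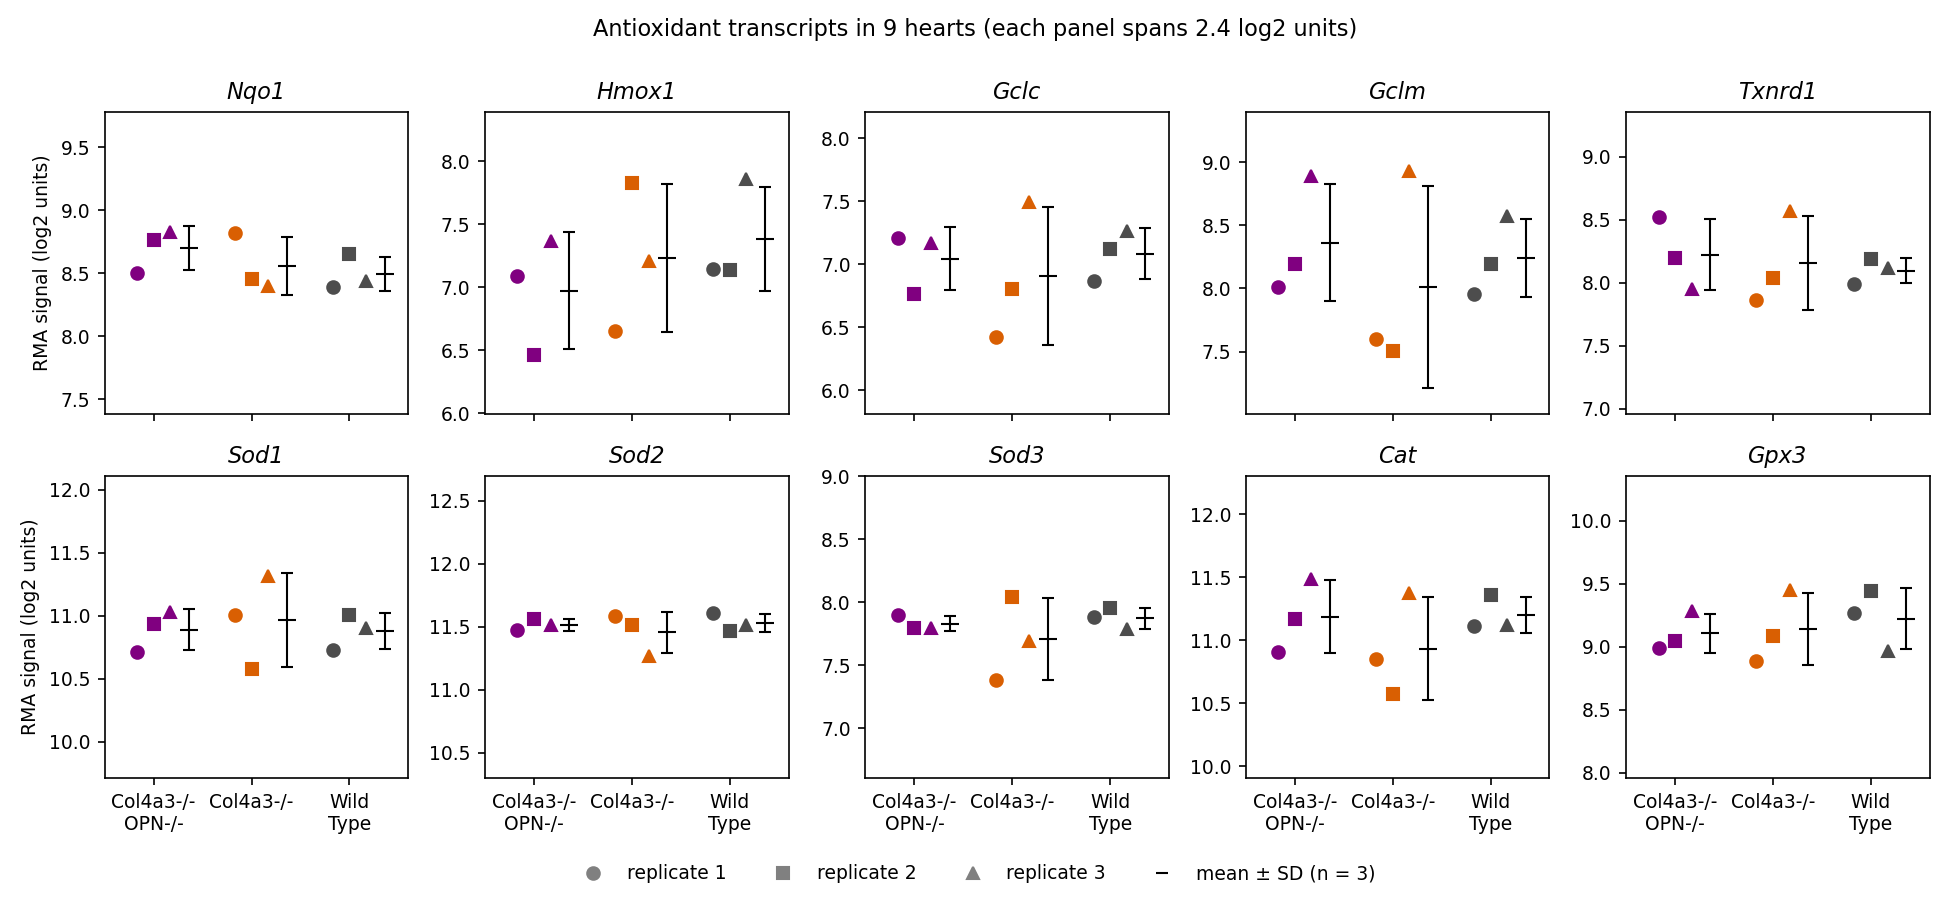
Log2 signal of each of the 10 genes in every heart, with Col4a3-/-OPN-/- hearts on the left, Col4a3-/- hearts in the middle and Wild Type hearts on the right; symbols are hearts, and the black line beside them marks the mean and its error bar the SD of 3 hearts. The 3 genotypes overlap in every panel, and the Col4a3-/- points spread widest.

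Gclm and Gclc encode the modifier and catalytic subunits of glutamate-cysteine ligase, which carries out the rate-limiting step of glutathione synthesis. Gclm had log2 signals of 8.01, 8.19 and 8.89 in Col4a3-/-OPN-/- hearts, 7.60, 7.50 and 8.93 in Col4a3-/- hearts, and 7.96, 8.19 and 8.57 in Wild Type hearts. The highest and the lowest of the 9 hearts were both Col4a3-/-, and replicate 3 was the highest heart of each genotype, although the labels do not say that the numbers mark anything shared. The Gclm difference was -0.23 for Col4a3-/- minus Wild Type, 0.35 for Col4a3-/-OPN-/- minus Col4a3-/- and 0.12 for Col4a3-/-OPN-/- minus Wild Type, each with an SE of 0.36. The 95% interval of the second of these ran from -0.44 to 1.15, so the data leave room for a difference of 1 log2 unit upwards as well as for a smaller one downwards (adjusted p = 0.697, limma). It depended on Col4a3-/- replicate 3, without which it was 0.81, and it was 0.0891 without Col4a3-/-OPN-/- replicate 3.

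Gclc had log2 signals of 7.21, 6.76 and 7.17 in Col4a3-/-OPN-/- hearts, 6.42, 6.80 and 7.50 in Col4a3-/- hearts, and 6.87, 7.12 and 7.27 in Wild Type hearts. Again a Col4a3-/- heart was the lowest and another the highest. The Gclc difference was -0.18 for Col4a3-/- minus Wild Type (95% interval -0.72 to 0.37), 0.14 for Col4a3-/-OPN-/- minus Col4a3-/- (-0.41 to 0.69) and -0.04 for Col4a3-/-OPN-/- minus Wild Type (-0.59 to 0.51), each with an SE of 0.25.

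Nqo1 encodes a quinone reductase that is widely used as a readout of NRF2 activity. Its log2 signals were 8.50, 8.77 and 8.83 in Col4a3-/-OPN-/- hearts, 8.82, 8.46 and 8.40 in Col4a3-/- hearts, and 8.40, 8.65 and 8.44 in Wild Type hearts. The means were 8.70 ± 0.17 in Col4a3-/-OPN-/-, 8.56 ± 0.23 in Col4a3-/- and 8.50 ± 0.14 in Wild Type hearts (SD, n = 3 each). The Nqo1 difference was 0.06 for Col4a3-/- minus Wild Type (95% interval -0.28 to 0.40), 0.14 for Col4a3-/-OPN-/- minus Col4a3-/- (-0.20 to 0.48) and 0.21 for Col4a3-/-OPN-/- minus Wild Type (-0.13 to 0.54), each with an SE of 0.15. The last had the smallest unadjusted p of any member in any comparison, 0.209, and an adjusted p of 0.999 in limma.

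Hmox1 encodes heme oxygenase 1, which degrades heme and is induced by heme and oxidants in macrophages as well as in muscle. Its log2 signals were 7.08, 6.46 and 7.37 in Col4a3-/-OPN-/- hearts, 6.65, 7.83 and 7.21 in Col4a3-/- hearts, and 7.14, 7.14 and 7.86 in Wild Type hearts. Wild Type replicate 3 and Col4a3-/- replicate 2 were the highest, and Col4a3-/-OPN-/- replicate 2 the lowest. The Hmox1 difference was -0.15 for Col4a3-/- minus Wild Type, -0.26 for Col4a3-/-OPN-/- minus Col4a3-/- and -0.41 for Col4a3-/-OPN-/- minus Wild Type, each with an SE of 0.32. The 95% interval of the last, -1.12 to 0.30, was among the widest of the 10 genes. Hmox1 was 6.46, 6.65 and 7.21 in the 3 hearts with high Xist and 7.08 to 7.86 in the other 6. With a Y-linked covariate in the fit, the Col4a3-/- minus Wild Type difference was 0.46 (adjusted p = 0.947, limma), of the opposite sign. Among Col4a3-/- hearts only replicate 2 had high Eif2s3y, as did every Wild Type heart. Sex and genotype are thus partly tied in this comparison, and the adjusted difference leans on few hearts. The summed linear signal of 10 macrophage markers was highest in Col4a3-/- replicate 2, at 4034 against 2362 to 3292 in the other 8 hearts. That heart also held the highest signal of 7 airway and lung markers, 5642 against 246.3 to 1173 elsewhere, and the part of these and of the fat signal in its Hmox1 value was not tested.

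Txnrd1 encodes the cytosolic thioredoxin reductase, a selenoprotein that restores reduced thioredoxin. Its log2 signals were 8.52, 8.20 and 7.95 in Col4a3-/-OPN-/- hearts, 7.86, 8.04 and 8.57 in Col4a3-/- hearts, and 7.99, 8.19 and 8.12 in Wild Type hearts. Wild Type hearts were close together, with an SD of 0.10, against 0.29 in Col4a3-/-OPN-/- and 0.37 in Col4a3-/- hearts. The Txnrd1 difference was 0.06 for Col4a3-/- minus Wild Type (95% interval -0.38 to 0.50), 0.07 for Col4a3-/-OPN-/- minus Col4a3-/- (-0.37 to 0.51) and 0.13 for Col4a3-/-OPN-/- minus Wild Type (-0.31 to 0.57), each with an SE of 0.20.

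The 3 superoxide dismutases act in different places: SOD1 in the cytosol, SOD2 in the mitochondrial matrix and SOD3 outside the cell. Sod2 was the steadiest member. Its log2 signals were 11.47, 11.56 and 11.51 in Col4a3-/-OPN-/- hearts, 11.58, 11.51 and 11.27 in Col4a3-/- hearts, and 11.60, 11.46 and 11.51 in Wild Type hearts, a span of 1.26-fold over all 9. Col4a3-/- replicate 3 was the lowest heart, and the other 8 lay between 11.46 and 11.60. The Sod2 difference was -0.07 for Col4a3-/- minus Wild Type, 0.06 for Col4a3-/-OPN-/- minus Col4a3-/- and -0.01 for Col4a3-/-OPN-/- minus Wild Type, each with an SE of 0.10. The interval of the first, -0.29 to 0.14, corresponds to a ratio of 0.819 to 1.10, and the Sod2 intervals were the narrowest of the 10 genes.

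Sod1 had log2 signals of 10.71, 10.93 and 11.03 in Col4a3-/-OPN-/- hearts, 11.00, 10.57 and 11.32 in Col4a3-/- hearts, and 10.73, 11.00 and 10.91 in Wild Type hearts. Its difference was 0.09 for Col4a3-/- minus Wild Type (95% interval -0.29 to 0.46), -0.08 for Col4a3-/-OPN-/- minus Col4a3-/- (-0.45 to 0.30) and 0.01 for Col4a3-/-OPN-/- minus Wild Type (-0.37 to 0.39), each with an SE of 0.17. Again both the highest and the lowest heart were Col4a3-/-. Sod3 had log2 signals of 7.90, 7.80 and 7.79 in Col4a3-/-OPN-/- hearts, 7.39, 8.04 and 7.69 in Col4a3-/- hearts, and 7.88, 7.95 and 7.79 in Wild Type hearts. Its SD was 0.06 in Col4a3-/-OPN-/-, 0.33 in Col4a3-/- and 0.08 in Wild Type hearts. Its difference was -0.17 for Col4a3-/- minus Wild Type (-0.53 to 0.19), 0.12 for Col4a3-/-OPN-/- minus Col4a3-/- (-0.24 to 0.48) and -0.04 for Col4a3-/-OPN-/- minus Wild Type (-0.40 to 0.32), each with an SE of 0.16.

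Cat encodes catalase, the peroxisomal enzyme that splits hydrogen peroxide. Its log2 signals were 10.90, 11.17 and 11.49 in Col4a3-/-OPN-/- hearts, 10.85, 10.57 and 11.38 in Col4a3-/- hearts, and 11.11, 11.36 and 11.12 in Wild Type hearts. Col4a3-/- replicates 1 and 2 were below all other hearts, while replicate 3 was the second highest of the 9. The Cat difference was -0.26 for Col4a3-/- minus Wild Type (95% interval -0.70 to 0.18, adjusted p = 0.748 in limma), 0.25 for Col4a3-/-OPN-/- minus Col4a3-/- (-0.19 to 0.69, adjusted p = 0.603) and -0.01 for Col4a3-/-OPN-/- minus Wild Type (-0.45 to 0.43, adjusted p = 0.999), each with an SE of 0.20. The first 2 adjusted p-values were the smallest of the 10 genes in their comparisons. Without Col4a3-/- replicate 3 the first difference was -0.49 and the second 0.48, and without Col4a3-/- replicate 2 they were -0.0829 and 0.0720.

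Gpx3 encodes the secreted glutathione peroxidase of plasma, made mainly by the kidney and also by other organs. Its log2 signals were 8.99, 9.05 and 9.28 in Col4a3-/-OPN-/- hearts, 8.89, 9.09 and 9.45 in Col4a3-/- hearts, and 9.27, 9.44 and 8.97 in Wild Type hearts. The Gpx3 difference was -0.08 for Col4a3-/- minus Wild Type (95% interval -0.46 to 0.30), -0.04 for Col4a3-/-OPN-/- minus Col4a3-/- (-0.42 to 0.35) and -0.12 for Col4a3-/-OPN-/- minus Wild Type (-0.50 to 0.27), each with an SE of 0.17. All 3 signs were negative, and all 3 intervals held 0.

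**Figure D2:**
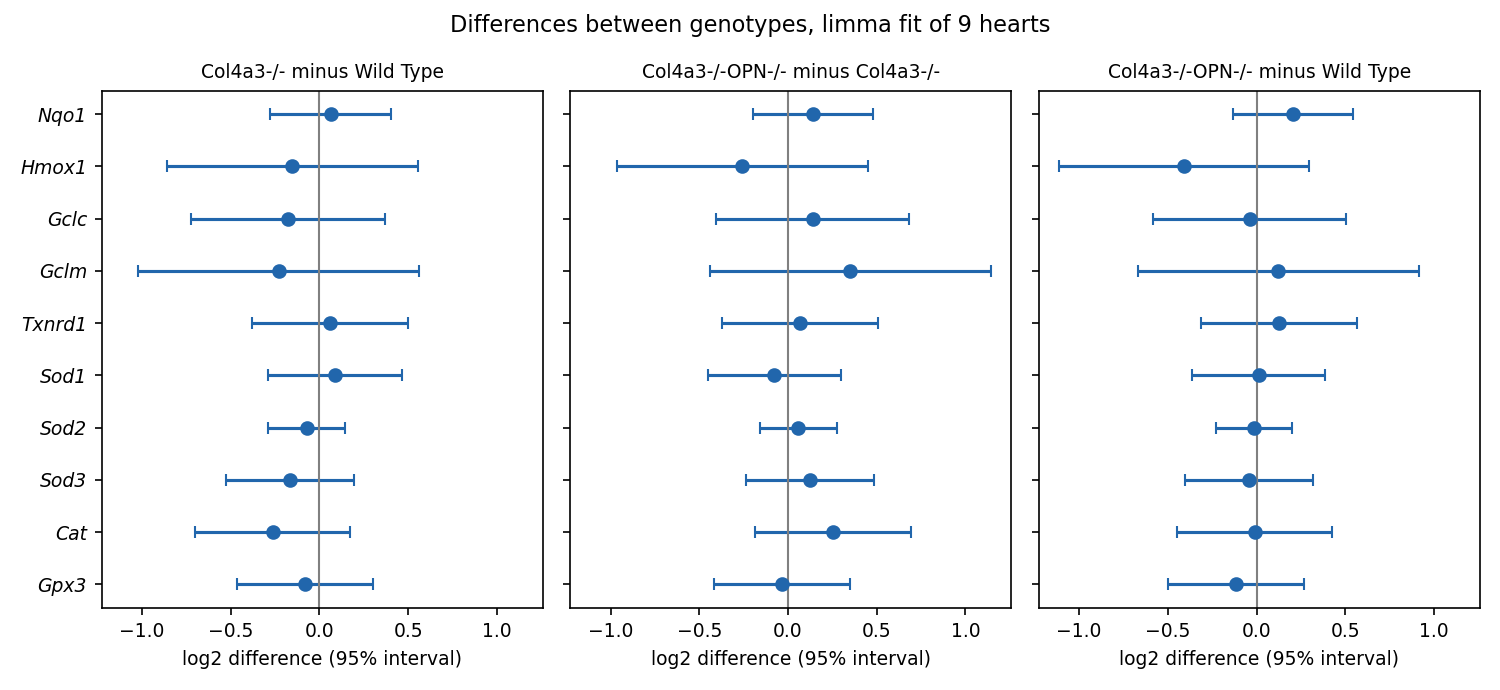
Log2 difference of each of the 10 genes in the 3 comparisons, the first-named genotype over the second; points are limma estimates and bars their unadjusted 95% intervals. Every interval crosses 0, Gclm and Hmox1 have the widest intervals and Sod2 the narrowest.

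The members differed among themselves in how much hearts of 1 genotype varied. The SD pooled within genotypes was 0.56 for Gclm, 0.49 for Hmox1 and 0.36 for Gclc. Among all tested probe sets these values stood at percentile 98.4 for Gclm, 97.3 for Hmox1 and 92.5 for Gclc. Sod2, at 0.11, stood at percentile 13.3, and Nqo1, at 0.18, at percentile 51.8. The other 5, Cat, Txnrd1, Sod1, Gpx3 and Sod3, lay between percentiles 57.7 and 85.5. Over the 9 hearts, Gclm spanned 2.70-fold, Hmox1 2.63-fold and Gclc 2.11-fold, against 1.35-fold for Nqo1.

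In all 10 members the SD was largest among the Col4a3-/- hearts, as it was in 60.9% of all tested probe sets. The median SD of the members was 0.21 in Col4a3-/-OPN-/-, 0.37 in Col4a3-/- and 0.14 in Wild Type hearts, and over all tested probe sets it was 0.14 in Col4a3-/-OPN-/-, 0.21 in Col4a3-/- and 0.12 in Wild Type hearts. The count was examined after it had been seen, and it rested in part on single hearts. It was 5 of 10 without Col4a3-/- replicate 3, where 44.6% of all probe sets had the largest SD in that genotype. It was 8 of 10 against 50.4% without Col4a3-/- replicate 1 and 9 of 10 against 54.5% without Col4a3-/- replicate 2. Leaving out Col4a3-/-OPN-/- replicate 2 gave 7 of 10 against 60.8%. The spread itself was compared as a description and carries no test.

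**Figure D3:**
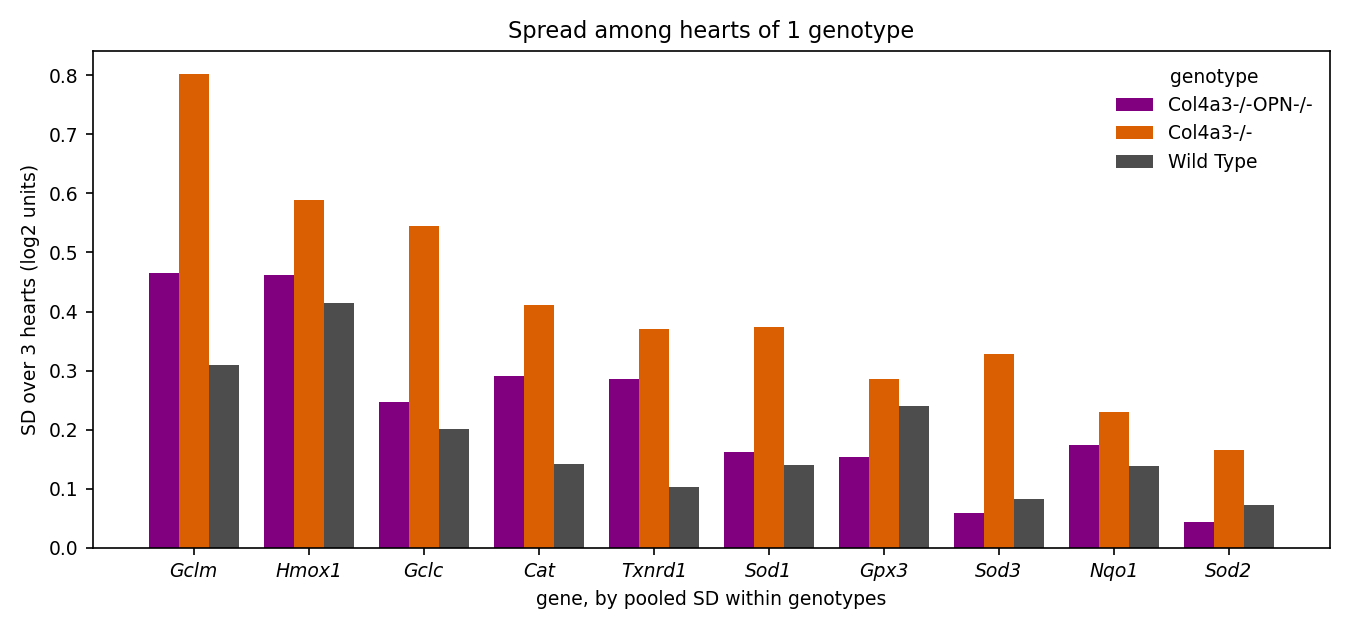
SD of the log2 signal over the 3 hearts of each genotype for each of the 10 genes, ordered by their pooled SD, with bars for Col4a3-/-OPN-/- first, Col4a3-/- second and Wild Type last. The Col4a3-/- value is the highest of the 3 in every gene.

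The highest and lowest values sat in individual hearts. Col4a3-/- replicate 3 was the highest of the 9 hearts for Gclc, Gclm, Txnrd1, Sod1 and Gpx3 and the lowest for Sod2. Over all tested probe sets it was the highest in 21.3% and the lowest in 26.1%. It is the heart with the high liver and acute inflammation signals and the low Col1a1 and cardiomyocyte signals, and their part in these positions was not tested. Col4a3-/- replicate 1 was the lowest for Gclc, Txnrd1, Sod3 and Gpx3, where 18.5% of all probe sets were lowest in that heart. Col4a3-/- replicate 2, the heart with the high airway, fat and macrophage signals, was the lowest for Gclm, Sod1 and Cat, where 11.1% were. The median deviation of the 10 members from their mean over the 9 hearts was -0.28 in Col4a3-/- replicate 1, -0.12 in replicate 2 and 0.28 in replicate 3. Of the 20 highest and lowest positions, 3 fell to Col4a3-/-OPN-/- hearts, where 28.8% of those of all tested probe sets fell, 14 to Col4a3-/- hearts, where 50.4% fell, and 3 to Wild Type hearts, where 20.8% fell.

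**Figure D4:**
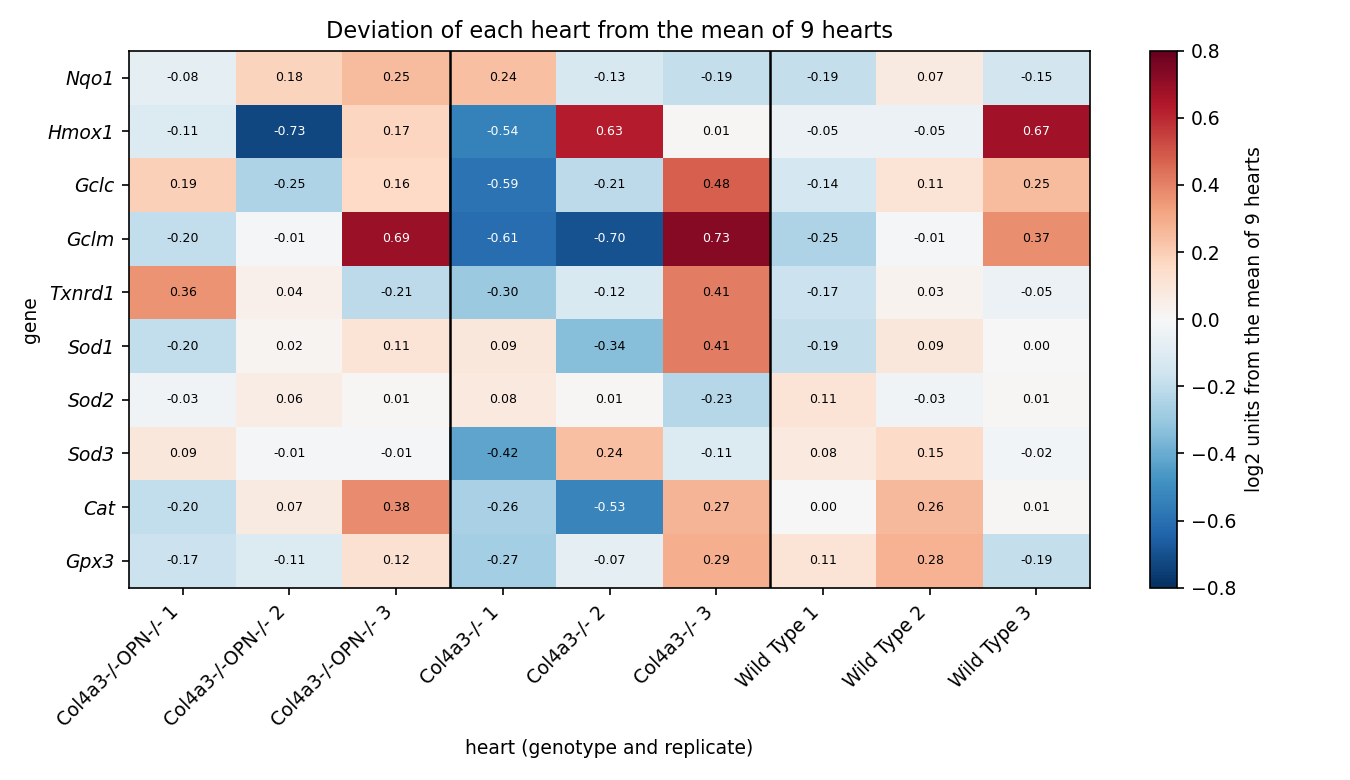
Deviation of each gene's log2 signal from its mean over the 9 hearts, one row per gene and one column per heart, with Col4a3-/-OPN-/- hearts on the left, then Col4a3-/- and Wild Type hearts; the colour scale runs from below to above the gene's mean. Col4a3-/- replicate 3 is above the mean in most rows and Sod2 is among its exceptions, while Col4a3-/- replicate 1 is below it for most genes.

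No pair of members passed the threshold for varying together, which does not show that they varied apart. Of 45 pairs over 9 hearts, 0 passed an adjusted p of 0.05 by the exact permutation test of Pearson's r or Spearman's rho. For r, 8 had an unadjusted exact permutation p under 0.05, and the share over pairs of all probe sets was not computed. On deviations from the genotype means, given without a test, r ran from -0.941 for Gclc and Sod2 to 0.928 for Sod1 and Cat. Gclm and Cat had r = 0.861 (exact permutation p = 0.0031, adjusted p = 0.118) and rho = 0.917 (exact permutation p = 0.00131, adjusted p = 0.0590), and r was 0.769 without the 2 hearts farthest from the median of Gclm. The 2 subunits of the ligase, Gclc and Gclm, had r = 0.792 (exact permutation p = 0.0114, adjusted p = 0.171) and rho = 0.75 (exact permutation p = 0.0255, adjusted p = 0.324), and r was 0.619 without the 2 farthest hearts. Txnrd1 and Sod2 ran opposite, with r = -0.785 (exact permutation p = 0.00525, adjusted p = 0.118), rho = -0.65 (exact permutation p = 0.0666, adjusted p = 0.333) and r = -0.50 without the 2 farthest hearts.

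Over the same 9 hearts, the tested probe set most like Cat was that of Acot2, a mitochondrial acyl-CoA thioesterase, with r = 0.989. Acot2 had log2 signals of 11.4, 11.7 and 12.4 in Col4a3-/-OPN-/- hearts, 11.2, 10.7 and 12.0 in Col4a3-/- hearts, and 11.7, 12.2 and 11.8 in Wild Type hearts. The most alike was Gm10638 for Gclm (r = 0.982), Maf1 for Sod1 (r = 0.975), Ruvbl2 for Sod2 (r = 0.964) and Cnnm3 for Gclc (r = 0.954). For Txnrd1 it was Pald1 (r = 0.952), for Sod3 Trmo (r = 0.955), for Gpx3 Csnk2a2 (r = 0.952), for Nqo1 Rbm43 (r = 0.930) and for Hmox1 Kcna6 (r = 0.916). Each is the highest of 13650 correlations over 9 shared arrays, is given as a description, and carries no test.

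Promoter sequence was set beside these patterns for the most variable and the steadiest members. RefSeq windows around the start site, on GRCm38.p6, were matched for 7 of the 10 genes, Nqo1, Gclm, Txnrd1, Sod1, Sod2, Cat and Gpx3. Hmox1, Gclc and Sod3 are named only. The core of the antioxidant response element was searched on both strands as TGACNNNGC, and the GC box, to which SP1 family factors bind, as GGGCGG. No match of one motif overlapped a match of the other. The element core was present in 12.4% of all 32851 windows and in 3 of the 9 windows of the 7 members, those of Gclm, Sod1 and Txnrd1. The GC box was present in 35.7% of all windows and in 7 of the 9 member windows, 1 for each of the 7 genes. Txnrd1 had 3 windows, and the core was in 1 of them. The 250 bases before the start of Gclm, the most variable member, lie at chr3:122245307-122245556 on the plus strand, those of Cat, the member with the highest r to it, at chr2:103485154-103485403 on the minus strand, and those of Sod2, the steadiest, at chr17:13007589-13007838 on the plus strand. For Sod1 and Txnrd1 the 60 bases around the core are shown, chr16:90220680-90220739 and chr10:82859088-82859147, both on the plus strand. All are written 5′ to 3′ along the gene's strand, with the motif matches in capitals.
Gclm: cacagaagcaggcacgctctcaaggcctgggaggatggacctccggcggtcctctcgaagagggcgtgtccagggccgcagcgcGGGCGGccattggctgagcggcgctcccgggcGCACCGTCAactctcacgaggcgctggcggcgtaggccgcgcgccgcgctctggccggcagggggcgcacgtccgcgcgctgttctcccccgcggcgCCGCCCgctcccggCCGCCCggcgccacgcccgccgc
Cat: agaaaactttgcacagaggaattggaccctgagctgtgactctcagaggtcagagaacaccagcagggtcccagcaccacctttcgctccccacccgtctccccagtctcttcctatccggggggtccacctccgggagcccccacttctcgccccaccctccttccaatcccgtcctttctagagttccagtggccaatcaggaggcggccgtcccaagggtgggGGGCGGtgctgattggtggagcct
Sod2: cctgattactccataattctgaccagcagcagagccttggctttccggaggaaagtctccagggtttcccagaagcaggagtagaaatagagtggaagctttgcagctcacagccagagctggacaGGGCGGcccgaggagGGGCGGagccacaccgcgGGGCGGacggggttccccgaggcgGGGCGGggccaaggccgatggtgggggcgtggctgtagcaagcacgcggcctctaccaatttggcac
Sod1: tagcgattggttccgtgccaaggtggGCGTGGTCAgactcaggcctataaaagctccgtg
Txnrd1: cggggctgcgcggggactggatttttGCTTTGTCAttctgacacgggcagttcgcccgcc

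In the Gclm window the reverse complement of the element core lies at -134 to -126 from the start, with GC boxes on either side of it, while the Cat window has 1 GC box close to the start and the Sod2 window has 4 GC boxes. The core is in neither the Cat nor the Sod2 window. Sod1, which holds the core, had a within-genotype SD of 0.25, and Cat, which does not, 0.30. A match is a run of letters and not a measured binding site, and no match says only that these letters are not in this window.

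The regulators of the NRF2 layer were measured in the same hearts. Of 9 regulators, 0 passed the limma threshold in any of the 3 comparisons, and 1 of 9, Nfe2l1, had an unadjusted p under 0.05, 0.046 for Col4a3-/-OPN-/- minus Col4a3-/-, where 13.6% of all probe sets were under 0.05. Nfe2l2 itself had log2 signals of 8.46, 8.87 and 8.97 in Col4a3-/-OPN-/- hearts, 8.79, 8.73 and 7.11 in Col4a3-/- hearts, and 8.56, 8.91 and 9.35 in Wild Type hearts. The low value belonged to Col4a3-/- replicate 3, the heart in which Gclc, Gclm and Txnrd1 were highest. The Nfe2l2 difference was -0.73 ± 0.39 (SE) for Col4a3-/- minus Wild Type (adjusted p = 0.641, limma) and 0.56 ± 0.39 for Col4a3-/-OPN-/- minus Col4a3-/- (adjusted p = 0.561). Both rested on Col4a3-/- replicate 3, without which they were -0.18 and 0.00812. Mafk, a small MAF partner of NRF2, went the other way in that heart, with log2 signals of 7.61, 7.44 and 7.50 in Col4a3-/-OPN-/- hearts, 6.89, 7.38 and 8.87 in Col4a3-/- hearts, and 7.72, 7.78 and 7.58 in Wild Type hearts. Keap1 was 7.54 to 7.63 in Col4a3-/-OPN-/-, 7.50 to 7.60 in Col4a3-/- and 7.42 to 7.66 in Wild Type hearts, and Bach1, a repressor that competes for the same elements, was 7.13 to 7.45 in Col4a3-/-OPN-/-, 6.92 to 7.41 in Col4a3-/- and 7.06 to 7.37 in Wild Type hearts.

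Across 8 lists of other redox genes, 103 of 119 had a probe set and 97 were tested. In Col4a3-/- minus Wild Type, 0 of 97 were called by limma, and 4 were higher and 7 lower at an unadjusted p under 0.05, or 11.3% of the list against 8.35% of all probe sets. In Col4a3-/-OPN-/- minus Col4a3-/-, 0 were called, and 7 were higher and 7 lower at that p, or 14.4% against 13.6%. In Col4a3-/-OPN-/- minus Wild Type, 0 were called, and 2 were higher and 1 lower, or 3.09% against 3.68%. The median difference over the 97 was -0.04 for Col4a3-/- minus Wild Type, 0.03 for Col4a3-/-OPN-/- minus Col4a3-/- and -0.01 for Col4a3-/-OPN-/- minus Wild Type.

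Among the 97 list genes, 4 had an unadjusted limma p under 0.01 for Col4a3-/-OPN-/- against Col4a3-/-, a share near the 3.86% of all probe sets. One of the 4, Blvrb, was also under it for Col4a3-/-OPN-/- against Wild Type, where 0.703% of all probe sets were. None was for Col4a3-/- against Wild Type, where 2.03% were. Gpx1, the main intracellular glutathione peroxidase, had log2 signals of 9.07, 9.01 and 9.10 in Col4a3-/-OPN-/- hearts, 9.35, 9.50 and 9.61 in Col4a3-/- hearts, and 9.27, 9.29 and 9.15 in Wild Type hearts. No 2 genotypes overlapped, and every Col4a3-/- heart was above every other heart. These 4 genes were picked by p from the same values, so groups without overlap are partly built into the choice. Of the 97 list genes, groups did not overlap in 12.4% for Col4a3-/- against Wild Type, where 12.5% of all probe sets did not. The shares were 20.6% against 16.5% for Col4a3-/-OPN-/- against Col4a3-/- and 11.3% against 13.2% for Col4a3-/-OPN-/- against Wild Type. The Gpx1 difference was -0.43 ± 0.11 (SE) for Col4a3-/-OPN-/- minus Col4a3-/-, with an unadjusted p of 0.0033 and an adjusted p of 0.190 in limma. For Col4a3-/- minus Wild Type it was 0.25 ± 0.11, with an adjusted p of 0.603.

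Txnrd3, a thioredoxin reductase best known from testis, had log2 signals of 6.56, 6.50 and 6.54 in Col4a3-/-OPN-/- hearts, 5.91, 6.11 and 6.11 in Col4a3-/- hearts, and 6.36, 6.26 and 6.26 in Wild Type hearts. Col4a3-/- hearts were below all others. The difference was 0.49 ± 0.11 (SE) for Col4a3-/-OPN-/- minus Col4a3-/- (adjusted p = 0.156, limma). Blvrb, biliverdin reductase B, had 6.29, 6.45 and 6.22 in Col4a3-/-OPN-/- hearts, 7.02, 6.93 and 6.58 in Col4a3-/- hearts, and 7.08, 6.69 and 7.00 in Wild Type hearts. Its difference was -0.52 ± 0.16 (SE) for Col4a3-/-OPN-/- minus Col4a3-/- (adjusted p = 0.246) and -0.60 ± 0.16 for Col4a3-/-OPN-/- minus Wild Type (adjusted p = 0.999), with no overlap in either. Aox1, an aldehyde oxidase that makes superoxide and peroxide as it works, had 7.43, 7.46 and 8.00 in Col4a3-/-OPN-/- hearts, 6.77, 6.98 and 7.22 in Col4a3-/- hearts, and 7.02, 7.16 and 7.07 in Wild Type hearts. Its difference was 0.64 ± 0.18 (SE) for Col4a3-/-OPN-/- minus Col4a3-/- (adjusted p = 0.206), and Col4a3-/-OPN-/- hearts were above all others.

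Substrate supply gave no call either. In Col4a3-/-OPN-/- minus Col4a3-/-, 9 NADPH supply genes had a median of 0.20 against 0.04 over all tested probe sets. Groups did not overlap there in 3 of 9, Nnt among them, where 16.5% of all probe sets did not. The count was 0 of 9 for Col4a3-/- against Wild Type and for Col4a3-/-OPN-/- against Wild Type, where 12.5% and 13.2% did not. Nnt is the mitochondrial transhydrogenase that supplies NADPH and is deleted in some C57BL substrains. Its log2 signals were 10.86, 10.74 and 10.58 in Col4a3-/-OPN-/- hearts and 10.46, 10.55 and 10.56 in Col4a3-/- hearts. Wild Type hearts had 10.60, 10.45 and 10.80. In the lists, a gene with several probe sets was represented by the one with the highest mean. The probe set used for Nnt thus kept its signal in every genotype. Steps between hearts elsewhere in the gene, or a loss of part of it, were not examined, so these values do not show that Nnt was intact. Txn1, the cytosolic thioredoxin that TXNRD1 recharges, had 8.18, 8.24 and 8.27 in Col4a3-/-OPN-/- hearts, 8.97, 8.27 and 8.80 in Col4a3-/- hearts, and 8.12, 8.38 and 8.32 in Wild Type hearts. Its difference was 0.41 ± 0.17 (SE) for Col4a3-/- minus Wild Type and -0.45 ± 0.17 for Col4a3-/-OPN-/- minus Col4a3-/-, with adjusted p of 0.576 and 0.313 in limma. Without Col4a3-/- replicate 1 the first was 0.26, and without Col4a3-/- replicate 2 it was 0.61.

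Among the widest differences of the lists in Col4a3-/- minus Wild Type were -0.73 for Nfe2l2 among the NRF2 regulators and -0.44 for Chac1, which degrades glutathione. Among glutathione S-transferases Mgst1 had 0.51 and Gstt2 -0.43, and among thioredoxins and peroxiredoxins Msrb3, a methionine sulfoxide reductase, had -0.34. Me3, a mitochondrial malic enzyme, had -0.39, and Slc40a1, the iron exporter ferroportin, -0.38. Hpx, the heme scavenger hemopexin made by the liver, had 0.38, which came from Col4a3-/- replicate 3, at 6.50 against 5.14 to 5.27 in the other 8 hearts. Ucp3, a mitochondrial carrier of muscle, had -0.48, and Mt1, a metallothionein, 0.35. Cybb, the catalytic subunit of the phagocyte NADPH oxidase, had 0.43, and Nos2 -0.35. None of these passed the adjusted threshold in limma, and of the genes in this paragraph only Mgst1 and Msrb3 had an unadjusted p under 0.05.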

How the data were processed

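RNA of 9 mouse hearts, 3 per genotype, was measured on 1 array each. The authors deposited log2 signals from RMA, per the submitters' processing notes, with the version not given in the sources used here. A small-RNA labelling kit is named in the labels, while the probe annotation is that of a whole-transcript gene array, so how the RNA was labelled is uncertain. The labels do not state whether hearts were littermates. Of 33793 probe sets, 23521 had 1 gene symbol, 1814 several and 8458 were not listed. The 13650 with 1 symbol and a mean above 5.21 entered 1 limma fit (limma 3.58.1, R 4.3.3; lmFit, eBayes with trend) over all 9 hearts, with Benjamini-Hochberg adjustment at 0.05, and the fit was tested on simulated data. The median SE of a log2 difference was 0.149, and the number of arrays limits the precision. Intervals are 95% and unadjusted. The probe set for Col4a3 was dim in all genotypes and none was used for Spp1, so the deletions were not checked by transcript level. The members and the gene lists were chosen with earlier results of these data known. Named list genes were those with the widest differences in a list or an unadjusted p under 0.01, and Nnt. For each member the probe set with the highest r was named. Keap1 and Bach1 were named outside that rule after their values were seen. Alternatives were other normalizations, filters, moderation, array weights, a replicate block, a Y-linked covariate, and each array left out in turn. Members of the lists with no single-symbol probe set were not analysed here.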

Additional observations from a re-analysis of the deposited data

How the results depend on the processing

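The 30 differences of the 10 genes were recomputed under 20 settings. Of 600 values, 548 kept their sign and stayed uncalled, 52 changed sign and 0 became called, with a lowest adjusted p of 0.270 in limma. Many of the kept signs could not have changed. Changes of filter, trend, moderation or replicate block, and a fit of only the genotypes compared, leave each difference as it is. So does leaving out a heart of the genotype not compared. With renewed quantile normalization, the changed signs were 0.0531 for Cat and 0.026 for Sod2 in Col4a3-/-OPN-/- minus Wild Type. With each array centred on its median, the changed signs were 0.00907 for Gpx3 in Col4a3-/-OPN-/- minus Col4a3-/- and 0.0117 for Cat and 0.00943 for Sod2 in Col4a3-/-OPN-/- minus Wild Type. With array weights, the changed signs were 0.087 for Hmox1, -0.075 for Sod1 and -0.00946 for Txnrd1 in Col4a3-/- minus Wild Type, 0.0104 for Gpx3, 0.10 for Sod1 and -0.00487 for Sod3 in Col4a3-/-OPN-/- minus Col4a3-/- and 0.00106 for Cat in Col4a3-/-OPN-/- minus Wild Type. With a Y-linked covariate, the changed signs were 0.46 for Hmox1, -0.041 for Nqo1, -0.16 for Sod1 and 0.0384 for Sod3 in Col4a3-/- minus Wild Type, 0.0493 for Sod1 in Col4a3-/-OPN-/- minus Col4a3-/- and 0.0131 for Gclc, -0.11 for Sod1 and 0.0568 for Sod3 in Col4a3-/-OPN-/- minus Wild Type. With each array left out in turn, the lowest and highest differences were, in Col4a3-/- minus Wild Type, -0.49 to -0.0829 for Cat, -0.47 to 0.065 for Gclc, -0.69 to 0.0255 for Gclm, -0.24 to 0.046 for Gpx3, -0.45 to 0.14 for Hmox1, -0.0676 to 0.14 for Nqo1, -0.0888 to 0.28 for Sod1, -0.14 to 0.0207 for Sod2, -0.33 to -0.006 for Sod3 and -0.15 to 0.21 for Txnrd1. The ranges were, in Col4a3-/-OPN-/- minus Col4a3-/-, 0.072 to 0.48 for Cat, -0.10 to 0.43 for Gclc, 0.0891 to 0.81 for Gclm, -0.16 to 0.12 for Gpx3, -0.55 to 0.0423 for Hmox1, 0.0609 to 0.27 for Nqo1, -0.27 to 0.10 for Sod1, -0.0338 to 0.12 for Sod2, -0.0383 to 0.29 for Sod3 and -0.0819 to 0.27 for Txnrd1. The ranges were, in Col4a3-/-OPN-/- minus Wild Type, -0.16 to 0.13 for Cat, -0.15 to 0.10 for Gclc, -0.14 to 0.30 for Gclm, -0.25 to -0.00855 for Gpx3, -0.61 to -0.16 for Hmox1, 0.14 to 0.30 for Nqo1, -0.0645 to 0.10 for Sod1, -0.0444 to 0.0261 for Sod2, -0.0882 to -0.00508 for Sod3 and -0.0216 to 0.26 for Txnrd1. The cause of these changes was not tested.

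Of 540 list medians, 535 moved by less than 1 SD. Many of these also could not move, as settings such as robust moderation or the replicate block leave each difference as it is. The median of metallothioneins and stress sensors in Col4a3-/-OPN-/- minus Col4a3-/- was 0.11 with array weights and -0.10 to 0.0765 with each array left out, and that of NRF2 regulators was 0.0330 to 0.24 there and -0.18 to 0.0473 in Col4a3-/- minus Wild Type. Over all probe sets, limma called 0 for Col4a3-/- minus Wild Type, with 1140 at an unadjusted p under 0.05. It called 1 with centring, with a stricter filter, without the trend or with robust moderation, 4 with the Y-linked covariate, and 0 to 6 with an array left out, 6 being without Col4a3-/- replicate 2. For Col4a3-/-OPN-/- minus Col4a3-/- it called 6, against 2 with a stricter filter or array weights, 0 with the Y-linked covariate, and 0 to 22 with an array left out, 22 being without Col4a3-/- replicate 2. For Col4a3-/-OPN-/- minus Wild Type it called 0, with 503 at an unadjusted p under 0.05, against 2 with all probe sets or the Y-linked covariate, 1 with array weights and 0 to 3 with an array left out. The F-test called 2, against 1 with renewed quantile normalization, no filter, a stricter filter or no trend, 4 with all probe sets and 0 to 4 with an array left out. The count of members most variable in Col4a3-/- hearts was 5 to 10 with an array left out, where the share of all probe sets ran from 44.6% to 62.3%. It was 10 under both rescalings, against 62.5% with renewed quantile normalization and 60.8% with centring. These settings were added after seeing the data. Differences of Nfe2l2, Gpx1, Txnrd3, Blvrb, Aox1 and Txn1 with an array left out, also added, kept their sign.

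The labels do not say whether replicate numbers pair the hearts. Over 9 same-number pairs, r of the deviations from the genotype means ran from -0.194 to 0.23, and 2 were over 0.1. Whether same-number hearts share a litter or batch was not tested. With the replicate block, 0 probe sets were called for Col4a3-/-OPN-/- minus Col4a3-/- and 0 by the F-test, and the Gclm difference there had an adjusted p of 0.471.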
